A study of Mus musculus with 12 samples.

Results

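The NF-kB transcription factor subunits and the IkB proteins that bind them were followed in lung CD4+ T cells of mice given Escherichia coli. The 10 genes were taken by symbol from the count table: the subunit genes Rela, Rel, Relb, Nfkb1 and Nfkb2, the cytoplasmic inhibitor genes Nfkbia and Nfkbie, and the nuclear IkB genes Bcl3, Nfkbid and Nfkbiz. All 10 were found among the 19434 genes counted, and all 10 were among the 11062 that passed a filter on low counts and were tested. Nfkbib, a further cytoplasmic inhibitor gene, was not among the 10 and stood on the list of feedback inhibitors below. CD4+ T cells, which help other immune cells through cytokines and contact, came from male and female C57BL/6NJ mice and were isolated 48 h after aspiration with magnetic beads and cell sorting. By its title, the study asks how DNA methylation bears on what CD4+ T cells of newborn mice do in pneumonia. Only the RNA counts were analysed here.

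The 4 groups held 3 libraries each. Juvenile E. coli mice (JE) aspirated 2800000 colony-forming units of E. coli at 15 days of life, and juvenile PBS mice (JP) aspirated phosphate-buffered saline at that age. Neonatal E. coli mice (NE) aspirated the same number of bacteria at 5 days of life, and neonatal PBS mice (NP) aspirated saline at that age. Each juvenile library was a pool of 2 mice and each neonatal library a pool of 3, so the spread below is between pools. The mice carried no engineered allele named in the labels, and the sources used here name no marker of the sort gate beyond CD4.

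NF-kB factors are dimers of subunits that share a DNA-binding Rel homology domain. Rela, Rel and Relb carry their own activation domains, whereas Nfkb1 and Nfkb2 encode precursors that are processed to DNA-binding subunits without one. In resting cells Nfkbia and Nfkbie products hold dimers in the cytoplasm until IkB kinase marks them for degradation, and both genes are themselves NF-kB targets, which closes a feedback loop. The nuclear IkB proteins bind dimers already on DNA and change their output. In T cells the pathway acts downstream of the antigen receptor, costimulatory receptors and cytokine receptors, and c-Rel, the product of Rel, is needed for interleukin 2 transcription and for regulatory T cell development.

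The promoters of 5 members are shown because these genes span the range of responses below, including Rela, whose window held no match to the kappa-B consensus. Each runs 5′ to 3′ on the gene's strand from 250 bases before to 30 bases after the annotated start, from RefSeq windows of GRCm38.p6, and capitals mark matches to the kappa-B consensus on either strand.
Bcl3, chr7:19822726-19823005, minus strand: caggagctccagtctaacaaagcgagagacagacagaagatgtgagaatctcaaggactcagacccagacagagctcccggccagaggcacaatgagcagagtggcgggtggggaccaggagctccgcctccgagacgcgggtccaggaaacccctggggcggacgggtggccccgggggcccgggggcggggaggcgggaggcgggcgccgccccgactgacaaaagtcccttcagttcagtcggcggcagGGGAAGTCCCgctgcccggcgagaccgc
Nfkb2, chr19:46304487-46304766, plus strand: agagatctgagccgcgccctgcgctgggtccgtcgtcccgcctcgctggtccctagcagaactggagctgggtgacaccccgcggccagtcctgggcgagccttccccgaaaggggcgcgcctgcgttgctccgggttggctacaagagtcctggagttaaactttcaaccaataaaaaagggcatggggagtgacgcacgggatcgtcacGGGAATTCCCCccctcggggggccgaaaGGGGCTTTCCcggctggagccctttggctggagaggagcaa
Rel, chr11:23770940-23771219, minus strand: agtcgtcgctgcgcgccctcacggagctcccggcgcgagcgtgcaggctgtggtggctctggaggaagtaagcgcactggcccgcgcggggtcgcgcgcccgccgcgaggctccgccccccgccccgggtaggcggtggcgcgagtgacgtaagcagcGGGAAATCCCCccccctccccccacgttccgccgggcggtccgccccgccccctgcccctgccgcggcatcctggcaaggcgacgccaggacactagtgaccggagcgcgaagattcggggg
Nfkbia, chr12:55492618-55492897, minus strand: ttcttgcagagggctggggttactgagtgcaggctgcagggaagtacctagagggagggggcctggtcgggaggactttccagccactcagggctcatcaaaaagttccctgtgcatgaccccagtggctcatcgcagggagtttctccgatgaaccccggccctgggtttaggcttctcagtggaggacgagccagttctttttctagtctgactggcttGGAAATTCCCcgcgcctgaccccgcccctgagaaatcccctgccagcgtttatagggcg
Rela, chr19:5637291-5637570, plus strand: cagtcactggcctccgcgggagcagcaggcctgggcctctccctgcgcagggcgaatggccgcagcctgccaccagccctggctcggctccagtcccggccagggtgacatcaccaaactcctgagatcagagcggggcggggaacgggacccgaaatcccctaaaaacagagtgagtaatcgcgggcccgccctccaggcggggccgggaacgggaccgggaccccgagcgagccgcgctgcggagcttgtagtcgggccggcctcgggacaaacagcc
A match was read when the 10 bases fitted the kappa-B consensus on either strand, and overlapping matches were joined in the capitals. The Bcl3 match lies at +3 to +12 from the start, the Rel match at -92 to -82, the Nfkbia match at -29 to -20, and the Nfkb2 matches at -39 to -29 and -11 to -2. The RefSeq table held windows for 7 of the 10 members, and 6 of these 7 had at least 1 match; Nfkb1, Relb and Nfkbiz had no window. By window, 8 of 11 member windows held a match, against 2776 of 32817 windows of all genes (8.46%) and 1106 of 10660 windows of tested genes (10.4%). Members with several start sites contribute several windows, which overlap in part. A match is a run of letters and not a measured binding site, and a window without one says nothing about the factor.

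Per kilobase of merged exon (GENCODE M21), the inhibitor gene Nfkbia, the nuclear IkB gene Nfkbiz and the subunit genes Nfkb1 and Rel were the 4 highest members in every group. In juvenile E. coli libraries Nfkbiz stood at 127 ± 10.4 CPM per kb (CPM, counts scaled to the library total and a TMM factor; mean ± SD, n = 3) and Nfkbia at 119 ± 18.3, which lie within their spread of each other, ahead of Nfkb1 at 69.6 ± 2.76 and Rel at 48.2 ± 3.88. In juvenile PBS libraries the order was Nfkbia at 81.3 ± 12.5, Nfkb1 at 50 ± 6.06, Nfkbiz at 46.2 ± 11.0 and Rel at 27.5 ± 0.770 CPM per kb. In that group Nfkb1 and Nfkbiz did not differ beyond their spread. In neonatal E. coli libraries Nfkbia stood at 92.0 ± 8.56, Nfkbiz at 84.0 ± 3.58, Nfkb1 at 60.2 ± 5.14 and Rel at 54.8 ± 2.32 CPM per kb, and each neighbouring pair but Nfkbiz and Nfkb1 lay within its spread. In neonatal PBS libraries Nfkbia stood at 72.8 ± 8.81, Nfkb1 at 59.7 ± 2.81, Nfkbiz at 49.6 ± 4.95 and Rel at 45.5 ± 6.42 CPM per kb, the last 2 within their spread. Bcl3 held rank 5 after E. coli at both ages, at 30.1 ± 5.22 CPM per kb in juveniles and 26.3 ± 4.81 in neonates. After PBS it held rank 8 in juveniles at 6.03 ± 0.600 and rank 7 in neonates at 8.74 ± 1.73. Relb and Nfkb2, the pair that forms the dimer of the non-canonical pathway, were the lowest 2 in every group, between 3.21 ± 0.893 CPM per kb for Nfkb2 in juvenile PBS libraries and 7.29 ± 1.31 for Nfkb2 in juvenile E. coli libraries. Lengths are those of the annotation and not of the transcripts the cells made.

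**Figure D1:**
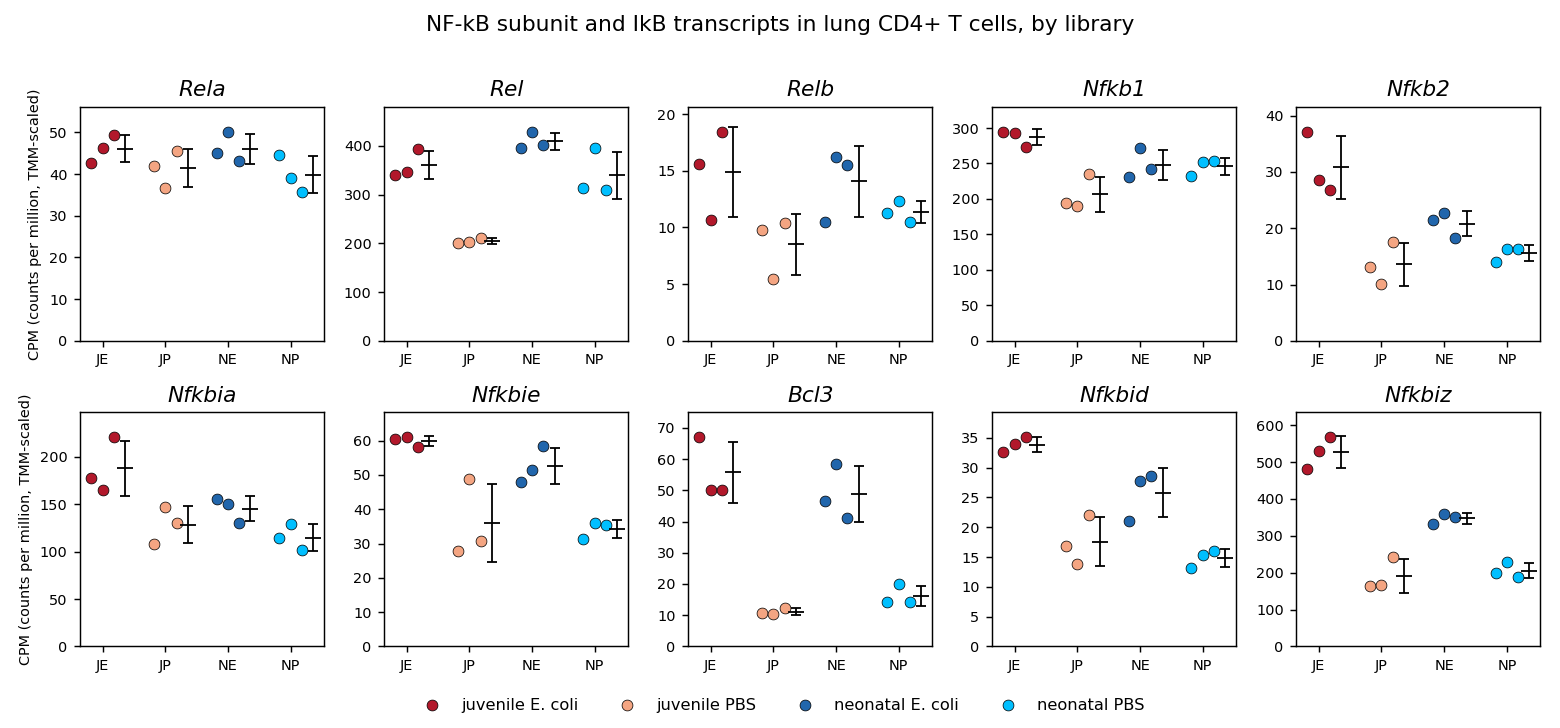
Level of each member in each library, in CPM (TMM-scaled, axes from 0), with the mean and SD of 3 libraries beside the points. Groups are juvenile E. coli (JE), juvenile PBS (JP), neonatal E. coli (NE) and neonatal PBS (NP). Bcl3 separates E. coli from PBS libraries at both ages, Rel is lowest in the 3 juvenile PBS libraries, and Rela overlaps between all groups.

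Counts per library totalled 6035445 to 8129983, so 3 counts, the limit that a count of 0 allows, correspond to 0.374 to 0.494 CPM depending on the library. Members had 33 to 4460 counts per library, all above that limit. Summed transcripts of 8 T cell markers were at 3878 to 4195 CPM in juvenile E. coli, 4770 to 5075 in juvenile PBS, 4056 to 4384 in neonatal E. coli and 4027 to 4580 in neonatal PBS libraries, and no marker of that list was at 0 in any group. Juvenile PBS library 2 and neonatal PBS library 1 stood highest of their groups in transcripts of immature T cells, which reached 292.5 CPM summed over 5 genes within juvenile PBS and 450.1 within neonatal PBS libraries, against at most 214.1 in juvenile E. coli and 69.3 in neonatal E. coli libraries. That limit covers counting error only, since PCR copies were not told apart, whereas the 95% intervals below come from the edgeR fit and include the spread between pools. In bulk samples, fewer cells of a type and less RNA per cell cannot be told apart, and this holds for every level below.

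In juveniles, 9 of the 10 members passed as higher after E. coli than after PBS, and Rela, higher in the mean, did not pass. The test was edgeR's quasi-likelihood test at an adjusted p of 0.05 (Benjamini-Hochberg over all tested genes). By that test 24.8% of all genes passed in either direction and 15.4% passed as higher. Under upper-quartile scaling the same 9 members passed, while the split of all called genes moved to 1468 higher and 1415 lower, against 1705 and 1042. In all 9 each juvenile E. coli library lay above each juvenile PBS library, as did 20.6% of all genes. The median log2 fold change was 0.81 over the 10 members and -0.01 over all tested genes. The 3 nuclear IkB genes had a median of 1.46, the 2 precursor genes 0.83, the 3 subunits with activation domains 0.80 and the 2 cytoplasmic inhibitors among the members 0.65.

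Of the members, Bcl3 and Nfkbiz had the largest log2 fold changes in juveniles. Bcl3, whose product binds homodimers of the processed subunits and can turn them into activators, had 66.9, 50.1 and 50.2 CPM in juvenile E. coli libraries, against 10.7, 10.4 and 12.4 CPM in juvenile PBS libraries. The groups did not overlap, and Bcl3 rose 4.99-fold, a log2 fold change of 2.32 ± 0.18 (SE) with an adjusted p of 9.48e-07 by edgeR. Nfkbiz, encoding IkB zeta, a coactivator of secondary response genes, had 481.1, 531.4 and 566.8 CPM in juvenile E. coli libraries, against 163.3, 166.8 and 243.7 CPM in juvenile PBS libraries. Juvenile PBS library 3 was the high one of its group but stayed below every E. coli library (log2 fold change 1.46 ± 0.13, adjusted p 3e-06). Nfkbid, encoding IkB-NS, a nuclear regulator tied to regulatory T cell development, had 32.6, 34.0 and 35.1 CPM in juvenile E. coli libraries, against 16.9, 13.8 and 22.0 CPM in juvenile PBS libraries. Nfkbid rose by 0.95 ± 0.16 on the log2 scale (adjusted p 0.000701), with E. coli libraries close together and PBS libraries more widely spread.

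Among the subunits, the precursor gene Nfkb2 had 37.1, 28.6 and 26.7 CPM in juvenile E. coli libraries, against 13.1, 10.1 and 17.5 CPM in juvenile PBS libraries. It rose 2.27-fold (log2 fold change 1.18 ± 0.19, adjusted p 0.000324 by edgeR), with library 1 of the E. coli group highest and library 2 of the PBS group lowest. Rel had 340.4, 346.1 and 393.2 CPM in juvenile E. coli libraries, against 200.7, 202.7 and 211.5 CPM in juvenile PBS libraries. The PBS libraries lay close together, and Rel rose by 0.81 ± 0.10 on the log2 scale (adjusted p 2.7e-05). Nfkb1 had 294.6, 292.7 and 273.9 CPM in juvenile E. coli libraries, against 194.7, 189.4 and 235.1 CPM in juvenile PBS libraries. The gap between the groups was narrower than for Rel, and Nfkb1 rose by 0.48 ± 0.09 (adjusted p 0.00168). Relb, the subunit of the non-canonical pathway, was the lowest in counts, with 15.6, 10.6 and 18.4 CPM in juvenile E. coli libraries, against 9.80, 5.44 and 10.4 CPM in juvenile PBS libraries. Library 2 was the lowest of each group, and the log2 fold change of Relb was 0.80 ± 0.25 (adjusted p 0.0314). Relb no longer passed without juvenile E. coli library 1 (adjusted p 0.0967) or 3 (0.115), without juvenile PBS library 2 (0.0873), or when only juvenile libraries were fitted (0.0803).

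Rela, the most widely used activating subunit of the canonical pathway, had 42.8, 46.1 and 49.3 CPM in juvenile E. coli libraries, against 41.9, 36.6 and 45.6 CPM in juvenile PBS libraries. The groups overlapped, and the log2 fold change of 0.15 ± 0.12 did not pass (adjusted p 0.373 by edgeR). Its 95% interval ran from -0.10 to 0.41, so changes within those bounds were not excluded. Of the cytoplasmic inhibitors, Nfkbia, encoding IkB alpha, had 177.6, 165.0 and 220.2 CPM in juvenile E. coli libraries, against 107.6, 146.7 and 130.6 CPM in juvenile PBS libraries. It rose by 0.55 ± 0.13 on the log2 scale (adjusted p 0.00738). Nfkbie, encoding IkB epsilon, had 60.6, 60.9 and 58.2 CPM in juvenile E. coli libraries, against 28.0, 49.0 and 30.8 CPM in juvenile PBS libraries. PBS library 2 was the high one of its group, and Nfkbie rose by 0.74 ± 0.16 (adjusted p 0.00404).

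The marker lists of other cells moved in the same comparison. Of 13 tested monocyte and macrophage markers 11 rose, and their list of 14 summed to 887.6 to 1333 CPM in juvenile E. coli libraries, against 316.4 to 538.9 CPM in juvenile PBS libraries. Of 10 dendritic cell and MHC class II markers 6 rose (490.5 to 593.5 CPM in juvenile E. coli and 227.3 to 344.2 CPM in juvenile PBS libraries). Of 4 tested neutrophil markers 3 rose (S100a8, S100a9 and Cxcr2). The list of 10 neutrophil genes summed to 9.40 to 21.8 CPM in juvenile E. coli and 0.165 to 3.31 CPM in juvenile PBS libraries. Of these genes 1 and 6 were at 0 in all 3 libraries, and the defining marker Ly6g was at 0 in every library outside the juvenile E. coli group. All 5 regulatory T cell markers rose (2462 to 4053 CPM in juvenile E. coli and 1215 to 1448 CPM in juvenile PBS libraries), and 5 of 8 T cell markers fell. Of 6 tested endothelial markers 4 rose and 1 fell (225.4 to 245.9 CPM in juvenile E. coli and 227.3 to 243.7 CPM in juvenile PBS libraries). Pecam1, the marker that fell, averaged 187.5 CPM in juvenile E. coli and 226.9 CPM in juvenile PBS libraries, most of those sums. Of those that rose, Kdr averaged 20.5 and 1.77 CPM and Cdh5 19 and 4.75 CPM, in the same order. Of 6 tested lung epithelial markers 2 rose (90.4 to 204.5 CPM in juvenile E. coli and 34.3 to 41.9 CPM in juvenile PBS libraries). Among 10 stress and immediate early genes, 3 rose, with sums of 1275 to 1630 CPM in juvenile E. coli and 1098 to 1748 CPM in juvenile PBS libraries. The part of these transcripts in the members' changes was not tested.

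In neonates, 3 of the 10 members passed as higher after E. coli than after PBS, and these were the 3 nuclear IkB genes. Across all genes 1.19% passed in either direction and 1.05% passed as higher. In 7 members every neonatal E. coli library lay above every neonatal PBS library, as did 11.2% of all genes, and the exceptions were Rela, Relb and Nfkb1. The median log2 fold change was 0.38 over the members and -0.003 over all tested genes.

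Bcl3 had 46.7, 58.5 and 41.0 CPM in neonatal E. coli libraries, against 14.3, 19.9 and 14.4 CPM in neonatal PBS libraries. It rose 3.01-fold, a log2 fold change of 1.59 ± 0.17 (adjusted p 0.000263 by edgeR), with a wide gap between the groups. Nfkbiz had 331.5, 360.6 and 350.3 CPM in neonatal E. coli libraries, against 198.5, 228.1 and 188.8 CPM in neonatal PBS libraries. It rose by 0.76 ± 0.13 on the log2 scale (adjusted p 0.00705), and without neonatal PBS library 1 it just missed the threshold (0.0527). Nfkbid had 21.1, 27.8 and 28.7 CPM in neonatal E. coli libraries, against 13.2, 15.3 and 16.0 CPM in neonatal PBS libraries. Its log2 fold change was 0.80 ± 0.17 (adjusted p 0.0282), and the call was lost without neonatal E. coli library 2 (0.14) or 3 (0.101) or neonatal PBS library 1 (0.15), 2 (0.0989) or 3 (0.0636). Without neonatal PBS library 1 only Bcl3, 1 member, remained past the threshold, with 56 genes called in all.

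Nfkbie, the inhibitor gene, did not pass the threshold in neonates. It had 48.0, 51.5 and 58.5 CPM in neonatal E. coli libraries, against 31.4, 36.1 and 35.4 CPM in neonatal PBS libraries, a log2 difference of 0.62 ± 0.17 with no overlap and an adjusted p of 0.0996. It passed in 4 of 20 alternatives, and the adjusted p over all of them reached 0.325. Those 4 were DESeq2 (0.0315), no filter on low counts (0.0498), only neonatal libraries fitted (0.00909) and juvenile PBS library 2 left out (0.00405). Nfkb2 had 21.4, 22.7 and 18.3 CPM in neonatal E. coli libraries, against 14.0, 16.4 and 16.3 CPM in neonatal PBS libraries (log2 difference 0.42 ± 0.19, adjusted p 0.383). Nfkbia had 155.3, 150.5 and 129.9 CPM in neonatal E. coli libraries, against 114.1, 129.0 and 101.3 CPM in neonatal PBS libraries (0.34 ± 0.13, adjusted p 0.311). In both genes the groups were separate by a small gap.

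None of the subunit genes passed in neonates by edgeR, and Nfkb2 and Rel were those whose groups did not overlap. At an unadjusted p under 0.05 by edgeR, Rel (0.0124) and Nfkb2 (0.0398) passed, as did 1327 of all 11062 tested genes. DESeq2 and voom called none of the 5 at the adjusted threshold either. Rel had 396.1, 428.6 and 401.9 CPM in neonatal E. coli libraries, against 314.2, 394.7 and 309.5 CPM in neonatal PBS libraries, where library 2 reached nearly the lowest E. coli library. Its log2 difference of 0.27 ± 0.09 did not pass (adjusted p 0.247 by edgeR). Nfkb1 had 230.9, 271.9 and 242.3 CPM in neonatal E. coli libraries, against 232.7, 252.1 and 253.3 CPM in neonatal PBS libraries. The groups overlapped, and the 95% interval of the log2 difference was -0.18 to 0.21. Rela averaged 46.1 ± 3.60 CPM in neonatal E. coli and 39.8 ± 4.47 CPM in neonatal PBS libraries, and Relb 14.1 ± 3.14 CPM in neonatal E. coli and 11.4 ± 0.957 CPM in neonatal PBS libraries (SD, n = 3 each), with overlap in both.

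The marker lists of other cells stood as follows in neonates. Of 13 tested monocyte and macrophage markers 1 rose (403.0 to 678.4 CPM summed in neonatal E. coli and 287.5 to 475.8 CPM in neonatal PBS libraries). Of 4 tested neutrophil markers 3 rose (S100a8, S100a9 and Cxcr2). The list of neutrophil markers summed to 10.1 to 54.9 CPM in neonatal E. coli and 0.833 to 3.27 CPM in neonatal PBS libraries, with 1 and 3 of the 10 genes at 0 in all 3 libraries. Dendritic cell and MHC class II markers summed to 154.3 to 183.6 CPM in neonatal E. coli and 119.2 to 176.6 CPM in neonatal PBS libraries, and regulatory T cell markers to 910.8 to 1369 CPM in neonatal E. coli and 1349 to 1462 CPM in neonatal PBS libraries. Among 10 stress and immediate early genes, 3 rose, Jun, Hspa1a and Hspa1b (1315 to 1490 CPM summed in neonatal E. coli and 839.7 to 1049 CPM in neonatal PBS libraries). Hspa1a averaged 61.9 CPM in neonatal E. coli and 9.73 CPM in neonatal PBS libraries, and Hspa1b 20.8 and 2.09 CPM. The sums of immature T cell markers were 16.9 to 69.3 CPM in neonatal E. coli and 79.9 to 450.1 CPM in neonatal PBS libraries. In that list 4 of 5 genes (Rag1, Rag2, Dntt and Arpp21) lay lower in every neonatal E. coli library than in every PBS library, without passing the test (adjusted p 0.0596 to 0.226 by edgeR). The part of any of these lists in the members' changes was not tested.

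**Figure D2:**
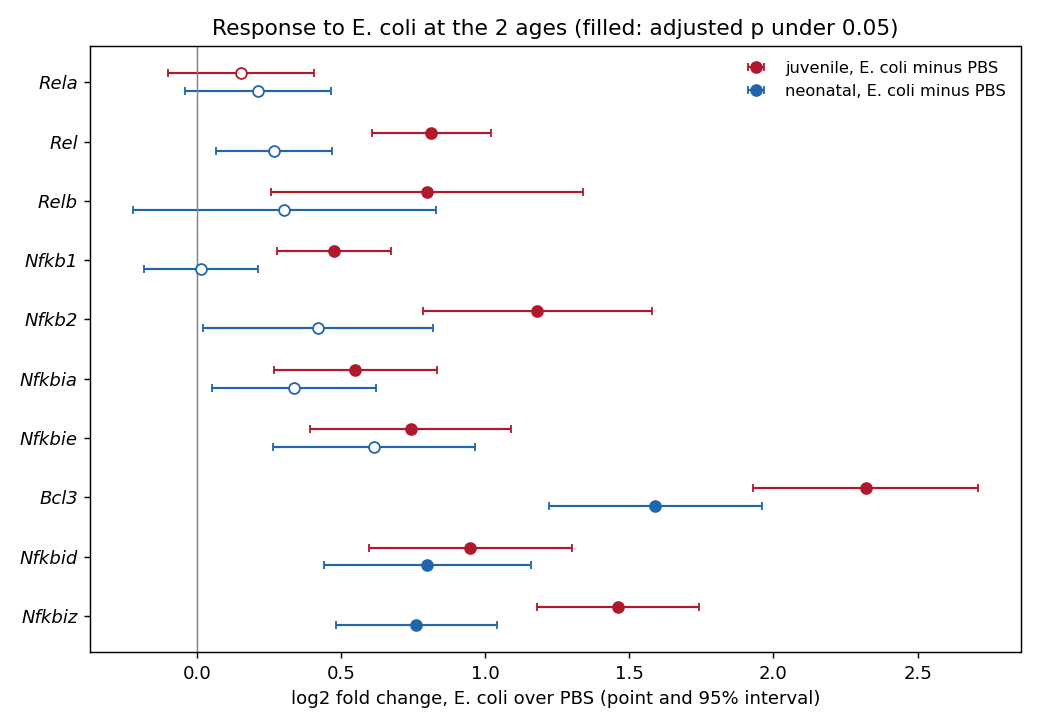
Log2 fold change of each member, E. coli over PBS, in juveniles (red) and neonates (blue), with 95% intervals; filled points passed an adjusted p of 0.05. In juveniles 9 members are filled, led by Bcl3 at 2.32, and in neonates the 3 nuclear IkB genes are filled.

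The difference between the juvenile and the neonatal response was tested as an interaction. It passed for Nfkbiz, Rel and Nfkb1, each with the larger rise in juveniles, 3 of 10 members where 7.00% of all genes passed in either direction and 5.05% passed as larger in juveniles. The difference in log2 fold change was 0.70 ± 0.18 for Nfkbiz (adjusted p 0.0309), 0.54 ± 0.13 for Rel (0.0239) and 0.46 ± 0.13 for Nfkb1 (0.0457) by edgeR. For Nfkb2 it was 0.76 ± 0.26 (adjusted p 0.0979) and for Bcl3 0.73 ± 0.25 (0.0943), as large but less precise and past no threshold. For the inhibitor genes the 95% intervals were -0.19 to 0.61 for Nfkbia and -0.37 to 0.62 for Nfkbie, and for Nfkbid -0.35 to 0.65. Differences within those bounds, in either direction, were not excluded. The Nfkb1 call was lost under upper-quartile scaling (0.0794) and with no filter on low counts (0.0609). No member passed without juvenile E. coli library 1 or 2, juvenile PBS library 1, neonatal E. coli library 1 or 2, or neonatal PBS library 2, and 1 passed without neonatal E. coli library 3 or neonatal PBS library 1 or 3, with the sign of the 3 differences kept throughout. With all 12 libraries, 4 of 5 regulatory T cell markers passed the interaction as larger in juveniles (Foxp3, Ikzf2, Ctla4 and Il2ra, 1.52 to 2.01). So did 1 of 13 tested monocyte and macrophage, 2 of 6 endothelial, 1 of 6 lung epithelial and 1 of 5 immature T cell markers. With the opposite sign, 1 of 8 T cell markers and 1 of 10 stress and immediate early genes passed. No other marker list had a call. The part of these lists was not tested.

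After PBS alone, 1 member passed the test between juvenile and neonatal libraries. Rel fell to 200.7, 202.7 and 211.5 CPM in juvenile PBS libraries, against 314.2, 394.7 and 309.5 CPM in neonatal PBS libraries. Every juvenile library lay below every neonatal one, as for 9.82% of all genes, and the log2 fold change was -0.73 ± 0.10 (adjusted p 0.000568 by edgeR). Of all genes 4.08% passed in either direction and 2.32% passed as lower in juveniles, and Rel stayed past the threshold under all 20 alternatives run. Bcl3 (log2 difference -0.54 ± 0.20, adjusted p 0.144 by edgeR) and Relb (-0.41 ± 0.26, 0.463) were also lower in every juvenile PBS library, but did not pass. With Rel, 3 of 10 members were thus separate in this direction. Nfkb1 (-0.25 ± 0.09, adjusted p 0.152) was lower in the mean, with overlap, and did not pass. It passed without juvenile PBS library 3 (0.0439), which made 2 members, with 365 genes called in all. This comparison shares its libraries with both responses above, so a low juvenile PBS level of Rel enters its juvenile response too. Of 10 dendritic cell and MHC class II markers 5 rose in this comparison (227.3 to 344.2 CPM in juvenile PBS and 119.2 to 176.6 CPM in neonatal PBS libraries), and regulatory T cell markers summed to 1215 to 1448 CPM in juvenile PBS and 1349 to 1462 CPM in neonatal PBS libraries. Among 10 stress and immediate early genes, 3 rose, Fos (1.18), Jun (0.95) and Dusp1 (0.82) on the log2 scale, and the list summed to 1098 to 1748 CPM in juvenile PBS and 839.7 to 1049 CPM in neonatal PBS libraries. Of 13 tested monocyte and macrophage markers 1 rose and 1 fell (316.4 to 538.9 CPM in juvenile PBS and 287.5 to 475.8 CPM in neonatal PBS libraries), and of 6 tested lung epithelial markers 1 fell (34.3 to 41.9 CPM in juvenile PBS and 46.5 to 82.2 CPM in neonatal PBS libraries). Their part was not tested.

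After E. coli, Nfkbiz and Nfkb2 passed as higher in juvenile than in neonatal libraries, 2 of 10 members where 17.8% of all genes passed and 11.3% passed as higher. Nfkbiz averaged 526.4 ± 43.1 CPM in juvenile E. coli and 347.5 ± 14.8 CPM in neonatal E. coli libraries (SD, n = 3 each), a log2 fold change of 0.60 ± 0.13 (adjusted p 0.00411 by edgeR). Nfkb2 averaged 30.8 ± 5.54 CPM in juvenile E. coli and 20.8 ± 2.27 CPM in neonatal E. coli libraries (0.56 ± 0.18, adjusted p 0.039). Rel averaged 359.9 ± 29.0 CPM in juvenile E. coli and 408.9 ± 17.3 CPM in neonatal E. coli libraries, a log2 difference of -0.18 ± 0.09 that did not pass (0.201). Its juvenile E. coli libraries, at 340.4 to 393.2 CPM, all lay below its neonatal E. coli libraries, at 396.1 to 428.6 CPM, by a small gap. Bcl3 averaged 55.7 ± 9.66 CPM in juvenile E. coli and 48.7 ± 8.89 CPM in neonatal E. coli libraries, with overlap. A share of 2 in 10 is close to the share of all genes. The Nfkb2 call was lost without juvenile E. coli library 1 (adjusted p 0.202) or 2 (0.072), neonatal E. coli library 1 (0.0982), 2 (0.0671) or 3 (0.131), or neonatal PBS library 2 (0.0512) or 3 (0.0517), and under upper-quartile scaling (0.0538). Without juvenile PBS library 2 the fit called 4 members, adding Nfkbia (0.034) and Nfkbid (0.0459), while all called genes rose from 1964 to 2637. All 5 regulatory T cell markers and 8 of 10 dendritic cell and MHC class II markers rose in juvenile over neonatal E. coli libraries (ranges above). Of 13 tested monocyte and macrophage markers 4 rose, Cd68, Ccr2, Ms4a7 and C1qb (887.6 to 1333 CPM summed in juvenile E. coli and 403.0 to 678.4 CPM in neonatal E. coli libraries). Of 5 immature T cell markers 2 rose, Dntt and Arpp21 (161.0 to 214.1 CPM summed in juvenile E. coli and 16.9 to 69.3 CPM in neonatal E. coli libraries). The part of these lists was not tested.

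The balance between members was read as ratios of counts within a library, which do not depend on scaling but mix genes of different length. The ratio of Rel to Rela was 7.96, 7.50 and 7.97 in juvenile E. coli libraries and 4.79, 5.54 and 4.64 in juvenile PBS libraries. It was 8.82, 8.55 and 9.31 in neonatal E. coli libraries and 7.04, 10.1 and 8.65 in neonatal PBS libraries. Juvenile PBS libraries were thus the lowest 3 of the 12. The ratio of Nfkb2 to Nfkb1 was 0.126, 0.0977 and 0.0974 in juvenile E. coli libraries and 0.0674, 0.0531 and 0.0746 in juvenile PBS libraries. In neonates it was 0.0929, 0.0834 and 0.0755 after E. coli and 0.0601, 0.0650 and 0.0645 after PBS, so E. coli libraries were above PBS libraries at each age. The ratio of Bcl3 to Nfkb1 was 0.227, 0.171 and 0.183 in juvenile E. coli libraries, against 0.0548, 0.0548 and 0.0529 in juvenile PBS libraries. It was 0.202, 0.215 and 0.169 in neonatal E. coli libraries, against 0.0613, 0.0788 and 0.0567 in neonatal PBS libraries. The ratio of the inhibitor Nfkbia to Nfkb1 was 0.603, 0.564 and 0.804 in juvenile E. coli libraries, against 0.553, 0.775 and 0.555 in juvenile PBS libraries. Those groups overlapped. In neonates the ratio was 0.673, 0.553 and 0.536 after E. coli, against 0.490, 0.512 and 0.400 after PBS, without overlap. No test was made on the ratios.

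**Figure D3:**
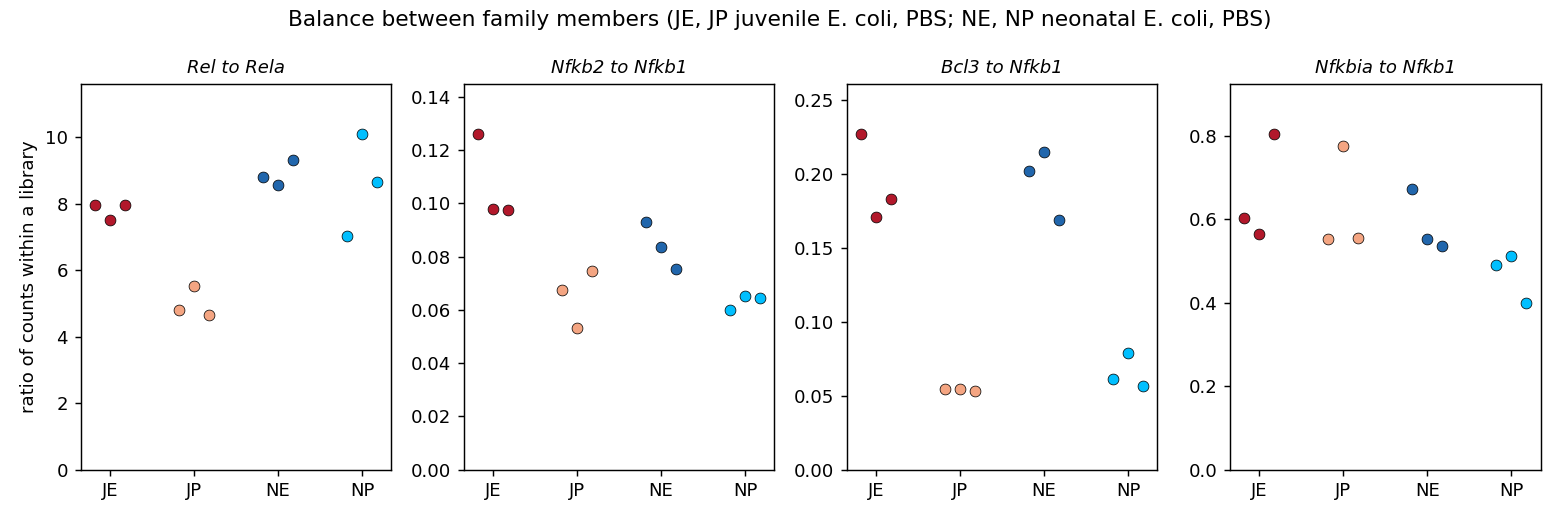
Ratio of counts of 2 members within each library (axes from 0), for juvenile E. coli (JE), juvenile PBS (JP), neonatal E. coli (NE) and neonatal PBS (NP) libraries. Rel to Rela is lowest in juvenile PBS libraries, at 4.64 to 5.54, and Bcl3 to Nfkb1 is higher after E. coli at both ages.

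Around the members, genes of the pathway were read in 4 lists: receptors and ligands, upstream kinases and adaptors, feedback inhibitors, and target genes. In juveniles 14 of 25 tested receptor and ligand genes rose and 2 fell, and 21 of 31 tested target genes rose and 2 fell, with median log2 fold changes of 0.77 and 1.32 against -0.01 over all genes. Of all tested genes 15.4% rose and 24.8% passed in either direction. Of 29 kinase and adaptor genes 9 rose and 5 fell (median 0.05), and of 17 feedback inhibitor genes 2 rose (median 0.10), a share near that of all genes. In neonates 1 of 25 receptor and ligand genes, 7 of 31 target genes, 1 of 29 kinase and adaptor genes and 1 of 17 feedback inhibitor genes rose, with medians of 0.19, 0.68, 0.03 and -0.03, where 1.05% of all genes rose. The juvenile counts moved most for receptors and ligands without juvenile E. coli library 1 (10), for kinases and adaptors without juvenile E. coli library 1 (8) or 2 (7) and for feedback inhibitors without juvenile PBS library 2 (4), each counting both directions. The neonatal target count was 11 without juvenile PBS library 2 and 2 without neonatal PBS library 2. Between the ages, 3 receptor and ligand genes and 3 target genes rose in juvenile over neonatal PBS libraries, where 1.75% of all genes rose. In juvenile over neonatal E. coli libraries 9 receptor and ligand genes and 12 target genes rose and 1 of each fell, where 11.3% of all genes rose and 17.8% passed in either direction.

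Among the receptors, Tnfrsf1b, a tumour necrosis factor receptor, had 438.6, 398.4 and 291.9 CPM in juvenile E. coli libraries, against 125.1, 146.3 and 144.7 CPM in juvenile PBS libraries (log2 fold change 1.44 ± 0.16, adjusted p 1.69e-05 by edgeR). The costimulatory receptors Tnfrsf9 (1.84 ± 0.24) and Tnfrsf4 (1.45 ± 0.24) and the interleukin 18 receptor gene Il18r1 (0.81 ± 0.10) rose as well. In neonates the receptor gene that passed was Il1r1, the interleukin 1 receptor (1.54 ± 0.31, adjusted p 0.022). That call was lost without neonatal E. coli library 1 (0.0792) or 3 (0.0512) or neonatal PBS library 1 (0.0794) or 2 (0.061). The interaction was called for Tnfrsf9 (1.81 ± 0.35, adjusted p 0.00714), Tnfrsf1b (1.38 ± 0.23, 0.00259) and Tnfrsf4 (1.28 ± 0.35, 0.0397), each with the larger rise in juveniles, and the Tnfrsf4 call was lost with limma voom (0.0544) and without any 1 of the 12 libraries other than juvenile E. coli library 3, juvenile PBS library 2 and neonatal E. coli library 3 (adjusted p up to 0.121). The interleukin 33 receptor gene Il1rl1 was higher in juvenile PBS libraries, at 69.1 ± 13.1 CPM, against 15.9 ± 3.64 CPM in neonatal PBS libraries (2.11 ± 0.35, 0.00383).

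Among kinases and adaptors, Map3k8, a kinase held by the Nfkb1 precursor in resting cells, had 51.4, 48.5 and 60.5 CPM in juvenile E. coli libraries, against 13.7, 12.5 and 11.0 CPM in juvenile PBS libraries (2.10 ± 0.15, adjusted p 5.34e-07 by edgeR). It had 44.6, 55.0 and 39.0 CPM in neonatal E. coli libraries, against 21.9, 21.4 and 20.3 CPM in neonatal PBS libraries (1.13 ± 0.14, 0.00112). Map3k8 was higher after E. coli in every library at both ages, with the larger rise in juveniles (interaction 0.98 ± 0.21, adjusted p 0.0105). Its juvenile PBS level lay below the neonatal PBS level (-0.77 ± 0.16, 0.0117), a call lost without neonatal PBS library 1 (0.0664). The adaptor Traf1 rose in juveniles (1.16 ± 0.14), with an interaction of 1.22 ± 0.20 (adjusted p 0.003), while Prkcq (-0.45 ± 0.07), which links the antigen receptor to NF-kB, and the IkB kinase relative Ikbke (-0.60 ± 0.11) fell. The antigen receptor adaptor gene Malt1 was higher in juvenile than in neonatal E. coli libraries (0.64 ± 0.08, adjusted p 5.14e-05). Among feedback inhibitors, N4bp1 (0.96 ± 0.12) and Birc3 (0.60 ± 0.08) rose in juveniles and Birc3 in neonates (0.38 ± 0.08, adjusted p 0.0319). Nfkbib, the cytoplasmic inhibitor gene on that list, did not pass in the response at either age. The neonatal Birc3 call was lost without juvenile E. coli library 2 (0.0542), neonatal E. coli library 1 (0.0564), 2 (0.214) or 3 (0.0613), or neonatal PBS library 1 (0.149) or 3 (0.149). The interaction of N4bp1 was 0.64 ± 0.17 (0.0294), lost without any 1 library other than juvenile E. coli library 3 and juvenile PBS library 2 (adjusted p up to 0.0997). Tnfaip3, the deubiquitinase that is the best known feedback inhibitor, was looked up after values were seen: it had 819.4, 952.7 and 1100 CPM in juvenile E. coli libraries, against 756.0, 947.6 and 983.3 CPM in juvenile PBS libraries, with overlap (0.10 ± 0.13, adjusted p 0.617).

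Among target genes the adhesion molecule gene Icam1 had 100.9, 103.2 and 111.1 CPM in juvenile E. coli libraries, against 20.8, 18.5 and 19.8 CPM in juvenile PBS libraries (2.42 ± 0.13, adjusted p 6.63e-08 by edgeR). It had 59.7, 62.8 and 43.2 CPM in neonatal E. coli libraries, against 22.3, 23.2 and 21.2 CPM in neonatal PBS libraries (1.31 ± 0.13, 0.000263), and its interaction was 1.10 ± 0.19 (0.00318). The transcription factor gene Irf4 rose at both ages, by 2.50 ± 0.22 in juveniles and 2.03 ± 0.21 in neonates. The chemokine gene Cxcl10 had 192.8, 107.4 and 88.7 CPM in juvenile E. coli libraries, against 1.59, 1.65 and 9.72 CPM in juvenile PBS libraries, and 18.0, 15.8 and 18.1 CPM in neonatal E. coli libraries, against 4.02, 4.58 and 4.74 CPM in neonatal PBS libraries. Cxcl10 rose by 4.92 ± 0.43 in juveniles (adjusted p 2.44e-06), with an interaction of 2.96 ± 0.67 (0.016) that was lost without neonatal PBS library 3 (0.0509). The prostaglandin synthase gene Ptgs2 rose in juveniles (3.91 ± 0.46) and in neonates (2.43 ± 0.41, adjusted p 0.00691), and Myc in neonates (0.71 ± 0.12, 0.00705). Without neonatal PBS library 2 the neonatal calls of Ptgs2 (0.0512) and Myc (0.0582) were lost. Cxcl10, Ptgs2 and Icam1 are also expressed by myeloid cells, whose marker sums are given above, and the part of such cells was not tested. The interleukin 2 receptor gene Il2ra, which stands on the regulatory T cell list too, had an interaction of 2.01 ± 0.29 (0.00137), and the lymph node homing receptor gene Ccr7 one of -1.24 ± 0.20 (0.00259). The early activation gene Cd69 was higher in juvenile PBS libraries, at 202.7 ± 17.9 CPM, against 107.9 ± 6.72 CPM in neonatal PBS libraries (0.91 ± 0.10, adjusted p 0.000184).

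**Figure D4:**
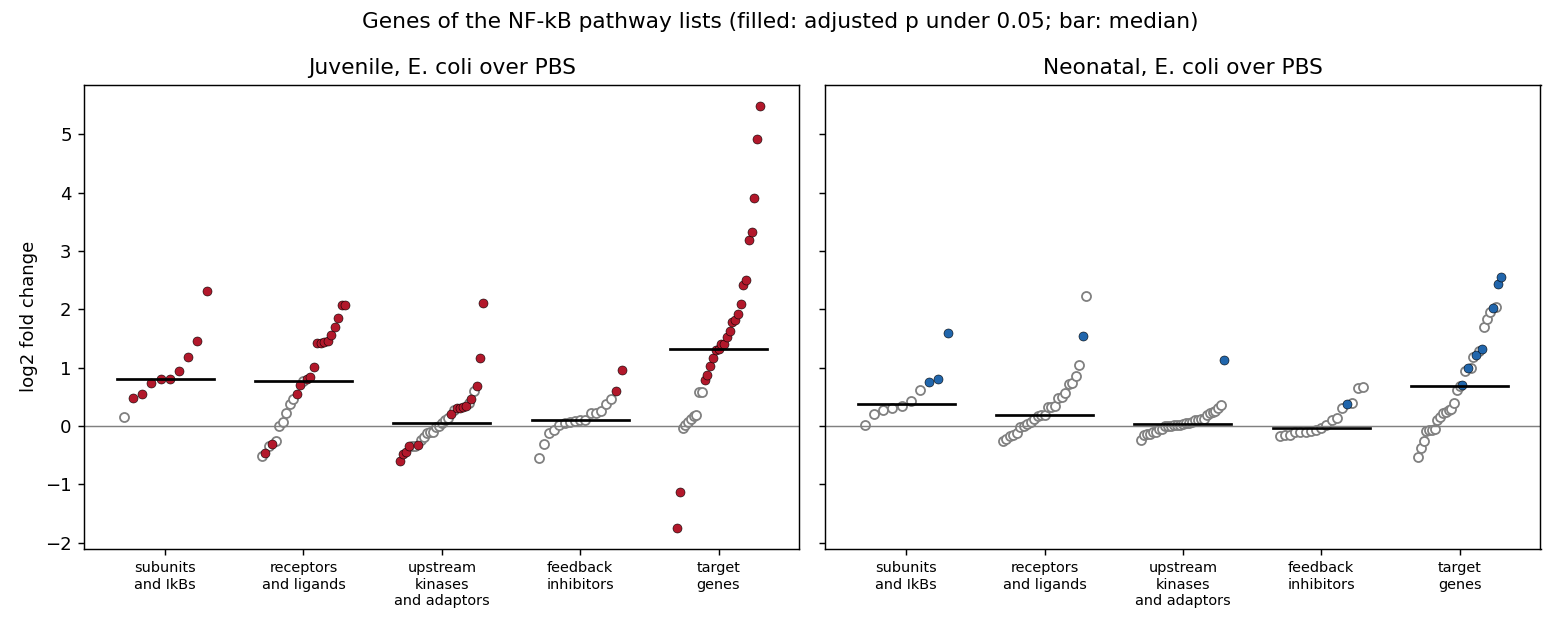
Log2 fold change, E. coli over PBS, of every tested gene of the members and of the 4 pathway lists, in juveniles (left) and neonates (right); filled points passed an adjusted p of 0.05 and bars are medians. In juveniles the medians of the members, receptors and targets are 0.81, 0.77 and 1.32, and in neonates 0.38, 0.19 and 0.68.

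Over the 12 libraries, the members' log2 levels correlated with each other with Pearson r between 0.317 for Rela with Nfkbie and 0.940 for Nfkbid with Nfkbiz, with a median of 0.711 over 45 pairs. These values describe 4 groups of libraries that differ in condition and share their scaling, and are not independent points. Among 8119 genes searched, the closest in pattern to Bcl3 were Stat3 (r = 0.984) and Gem (0.981), and to Nfkbiz Plk3 (0.985) and Got1 (0.972). For Nfkbid they were Cish (0.964) and Slc3a2 (0.959), for Nfkb2 Jak3 (0.973) and Rsbn1l (0.964), and for Rel Fosl2 (0.962) and Nr4a3 (0.939). Nfkb1 was closest to Rsbn1l (0.957) and Dusp4 (0.957), Nfkbie to Hspa8 (0.953) and Ahr (0.930), Nfkbia to Prpf38b (0.948) and Fndc3a (0.876), Rela to Glul (0.910) and C5ar1 (0.896), and Relb to Kdm6b (0.895) and Pqlc1 (0.888). Cish and Stat3 belong to cytokine signalling through STAT proteins, and Fosl2 and Nr4a3 are activation-induced transcription factor genes.

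In the genome (GRCm38, GENCODE M21) the members are spread over 7 chromosomes, with Relb (chr7:19606217-19629438, minus strand), Bcl3 (chr7:19808462-19822770, minus strand) and Nfkbid (chr7:30421732-30428746, plus strand) on chromosome 7 and Rela (chr19:5637483-5648130, plus strand) and Nfkb2 (chr19:46304320-46312385, plus strand) on chromosome 19. Rel lies at chr11:23736847-23770970 and Nfkb1 at chr3:135584655-135691547, both on the minus strand. Nfkbia lies at chr12:55489410-55492647 on the minus strand, Nfkbie at chr17:45555703-45563169 on the plus strand and Nfkbiz at chr16:55811375-55838899 on the minus strand. The exons of Nfkb2 share 299 bases with Psd on the opposite strand, a gene of 2.47 to 7.37 CPM, and 531 bases with the noncoding AC114539.1, and Bcl3 shares 161 bases with the antisense gene Gm16175. The cDNA kit does not mark strand, so reads in those bases cannot be assigned to one strand, and the counts of Nfkb2 and Bcl3 are uncertain to that extent.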

How the data were processed

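RNA of 12 libraries was sequenced as 100 base pair paired ends from amplified cDNA made with a kit that does not mark strand, per the labels' protocols. Bases were called with CASAVA 1.8.4 and reads aligned with STAR to GRCm38, per the submitters' processing notes. The deposited values are raw whole-number counts per gene symbol, and the table's name credits SeqMonk. The sources used here name no version, strand setting or annotation for that step. Counts ran from 6035445 to 8129983 per library, and no 2 libraries of a group agreed within counting error (a chi-square of 4 to 20.7 per degree of freedom).

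Groups follow the labels, and the 3 replicates of a group are separate pools. Genes were filtered with filterByExpr (minimum count 10, minimum total 15), which left 11062 of 19434 genes, and tested with edgeR 4.0.16 (R 4.3.3, TMM scaling) by the quasi-likelihood F test on 4 group means of all 12 libraries, with Benjamini-Hochberg adjustment over all tested genes and a threshold of 0.05. CPM use the total over tested genes and the TMM factor. Standard errors are the log2 fold change over the square root of F, and intervals are 95%. The fit was tested on simulated counts with the same dispersion for all genes and changes placed in the juvenile E. coli group only. Recovery of changes between the neonatal groups or between the PBS groups was therefore not tested. Alternatives were DESeq2 1.42.0, voom of limma 3.58.1, upper-quartile and RLE scaling, no filter, 10 counts in every library of a group, a replicate block, only the groups compared, and each library left out in turn. Figures used Python 3.11.15, pandas 2.3.3 and matplotlib 3.10.9.

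The members, gene lists and tests were chosen with earlier results of these data known. Text names all members, up to 4 genes of smallest p per pathway list among those called in each response and the interaction, up to 2 in each age comparison, and the 2 genes closest to each member among tested genes whose average log2 CPM reached 3. Not every gene so selected is reported. All 106 pathway genes matched the table, 1 by an older symbol, and 95 of 96 marker genes, 1 by an older symbol. Replicate numbers are not said to pair the pools, so they were not taken as pairs. The DNA methylation data were not analysed here.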

Additional observations from a re-analysis of the deposited data

Results flagged for a closer look

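Of the 10 members, 3 responded differently to E. coli at the ages by the test of the interaction itself. Nfkbiz had a log2 fold change larger by 0.70 in juveniles than in neonates, Rel by 0.54 and Nfkb1 by 0.46. Without neonatal E. coli library 1 none of the 3 passed, with an adjusted p by edgeR of 0.103 for Nfkbiz, 0.0953 for Rel and 0.159 for Nfkb1. The other libraries whose removal lost calls are named with the interaction above.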

How the results depend on the processing

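Of the calls in the juvenile response, those of Rel, Nfkb1, Nfkb2, Nfkbia, Nfkbie, Bcl3, Nfkbid and Nfkbiz held under all 20 alternatives, as did the neonatal call of Bcl3 and the lower juvenile PBS level of Rel. The interaction calls held in 13 (Rel), 10 (Nfkbiz) and 7 (Nfkb1) of 19 alternatives, and the higher juvenile E. coli level of Nfkb2 in 11 of 20. With 1 library left out, members called ran from 8 to 9 in the juvenile response, 1 to 4 in the neonatal response, 0 to 4 for the interaction, 1 to 2 for juvenile over neonatal PBS and 1 to 4 for juvenile over neonatal E. coli libraries. In the last of these comparisons 1 member was called under upper-quartile scaling and 4 with only the groups compared. All called genes then numbered 1986 and 2420. All called genes ran from 1656 to 3204, 55 to 238, 368 to 1553, 177 to 671 and 1108 to 2637 over the left-out libraries, in the same order of comparisons. The neonatal count of 132 was 238 with DESeq2 and 320 with only the groups compared, and the count of 451 between PBS groups was 729 and 280.

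Direction turned for values near 0. For Rela in juvenile over neonatal E. coli libraries the log2 difference was 0.00623 with RLE scaling, 0.00592 with DESeq2 and 0.00272 with only the groups compared. With 1 library left out it ran from -0.0536 to 0.0566, and that of Relb from -0.0971 to 0.277. The neonatal difference of Nfkb1 ran from -0.0471 to 0.0662, the juvenile difference of Tnfaip3 from -0.0157 to 0.179, and the interactions of Rela from -0.176 to 0.0245, Nfkbie from -0.0284 to 0.414 and Nfkbid from -0.00702 to 0.345. Between PBS groups Rela ran from -0.0185 to 0.171, Nfkbie from -0.227 to 0.215 and Nfkbiz from -0.314 to 0.00648. The cause was not tested.

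Replicate numbers shared by the groups are not said to pair the pools. The correlation of deviations of same-numbered libraries ran from -0.24 to 0.244 and passed 0.1 in 4 of 18 pairs. Differently numbered libraries were not compared, so these values cannot decide whether the numbers pair the libraries. With the numbers as a replicate block, 9 members were called in the juvenile response, 3 in the neonatal one, 2 for the interaction, 1 between PBS groups and 1 between E. coli groups. All called genes with the block numbered 2568, 106, 645, 416 and 1780 in the same order. Calls lost there were the interactions of Nfkb1 (adjusted p 0.0603) and Tnfrsf4 (0.0574), the neonatal rise of Birc3 (0.052) and the higher juvenile E. coli level of Nfkb2 (0.0613). Relb had the fewest counts of the members, with the lowest mean level in every group (8.53 to 14.9 CPM).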
